A study of Mus musculus with 2 samples.

Results

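Chemoattractant receptors were followed as a set of 9 genes, Fpr1, Fpr2, Cxcr2, Cxcr4, Ccr1, Ccr2, Ltb4r1, C5ar1 and Cx3cr1, among the 32285 genes counted in the series. The genes were chosen by name as the receptors that steer neutrophils and monocytes, and all 9 were found by their symbols. Their UMIs were compared between a DMSO and a dabrafenib (DAB) library and across groups of cells defined by marker genes.

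Both libraries came from bone marrow of female C57BL/6 mice of 10 weeks. The marrow was cultured for 4 days with GM-CSF and IL6, at 50 ng/mL each, to give myeloid-derived suppressor cells (MDSC), immature myeloid cells that restrain T cells. Dabrafenib, a BRAF kinase inhibitor that the study examined as an activator of the stress kinase GCN2, was present at 1.5 µM in 1 culture, and the other received DMSO alone. There was 1 library per condition and the sources used here do not give the number of mice behind each. No test between the conditions was therefore made. Log2 ratios set DAB over DMSO throughout, and the 95% intervals cover counting error only.

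After filtering, 9032 DMSO cells with 91578894 UMIs and 10476 DAB cells with 139781110 UMIs remained, with medians of 7495 and 9376.5 UMIs per cell. The marker of myeloid cells Itgam had a UMI in 81.6% and 84.1% of them and S100a8 in 82.7% and 91.2%, so the cultures carried the labelled lineage. Marker genes named 11 cell types, 9 of which held at least 100 cells of each library, and 43.4% of DMSO and 43.1% of DAB cells stayed unnamed. The 39 receptors measured, members included, were left out of the clustering. The libraries shared 152 cell barcodes before filtering.

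Chemoattractant receptors are G protein-coupled receptors on the surface of leukocytes that sense gradients of chemokines, bacterial formyl peptides, lipid mediators or complement fragments and signal mainly through Gi proteins. CXCR2 draws neutrophils out of the marrow and into tissue while CXCR4 holds them in the marrow, CCR2 lets inflammatory monocytes leave it, and CX3CR1 marks patrolling monocytes and macrophages. FPR1 and FPR2 sense formylated peptides, CCR1 several CC chemokines, the Ltb4r1 product leukotriene B4 and C5AR1 the complement fragment C5a. On GRCm38, Cxcr2 lies at chr1:74153989-74161246 on the plus strand and Cxcr4 at chr1:128588199-128592293 on the minus strand. Ccr1 lies at chr9:123962124-123968692 on the minus strand, Ccr2 at chr9:124101950-124113557 on the plus strand and Cx3cr1 at chr9:119901616-120069879 on the minus strand. Fpr1 lies at chr17:17876471-17883940 on the minus strand and Fpr2 at chr17:17887824-17893952 on the plus strand. Ltb4r1 lies at chr14:55765962-55768494 on the plus strand and C5ar1 at chr7:16246743-16259540 on the minus strand.

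The upstream sequences of 4 members are shown because 2 pairs of them carry the results that follow: Fpr1 and Fpr2 are neighbours read away from each other on chromosome 17 with like patterns across clusters, and Cxcr2 and Cxcr4 are the pair whose balance was measured. The stretches end where the first annotated exon begins, run 5′ to 3′ on the strand of the gene and come from RefSeq on GRCm38.p6. Capitals mark CG dinucleotides.
Fpr1, chr17:17883941-17884189, minus strand: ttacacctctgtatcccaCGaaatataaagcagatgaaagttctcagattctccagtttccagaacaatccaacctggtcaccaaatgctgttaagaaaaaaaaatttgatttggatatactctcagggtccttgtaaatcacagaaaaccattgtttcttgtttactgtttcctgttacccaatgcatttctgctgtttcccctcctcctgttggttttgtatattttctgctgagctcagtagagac
Fpr2, chr17:17887574-17887823, plus strand: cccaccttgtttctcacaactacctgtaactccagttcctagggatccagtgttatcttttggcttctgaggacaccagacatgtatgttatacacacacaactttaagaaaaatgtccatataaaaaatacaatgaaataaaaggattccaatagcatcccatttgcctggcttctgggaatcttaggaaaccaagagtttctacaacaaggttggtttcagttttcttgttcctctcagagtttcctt
Cxcr2, chr1:74153744-74153988, plus strand: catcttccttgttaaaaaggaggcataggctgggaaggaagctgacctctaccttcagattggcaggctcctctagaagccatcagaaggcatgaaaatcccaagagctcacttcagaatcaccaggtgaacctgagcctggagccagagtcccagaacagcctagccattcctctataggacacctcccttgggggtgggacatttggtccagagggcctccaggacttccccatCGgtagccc
Cxcr4, chr1:128592300-128592549, minus strand: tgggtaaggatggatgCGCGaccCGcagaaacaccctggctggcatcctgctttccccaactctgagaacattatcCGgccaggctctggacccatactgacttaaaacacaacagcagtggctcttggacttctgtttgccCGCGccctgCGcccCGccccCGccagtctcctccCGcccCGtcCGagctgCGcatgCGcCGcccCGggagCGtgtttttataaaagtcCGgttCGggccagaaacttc
The Cxcr4 stretch held 19 CG dinucleotides and was 61.2% G or C, while that of Cxcr2 held 1 and was 54.4% G or C. Fpr1 and Fpr2 held 1 and 0, and were 38.4% and 38.8% G or C over 250 bases. The median over 32851 promoters was 6.00 CG dinucleotides and 52.4% G or C, a measure chosen after the sequences had been seen. Promoter windows of 250 bases of all 9 members were also searched on both strands for 4 motifs, with N for any base: TGATGNAA for ATF4 with C/EBP, TTGCNNAA for C/EBP, GAGGAAGT for PU.1 and TGANTCA for AP-1. These letters stood in 3.45%, 9.56%, 2.44% and 6.75% of all promoter windows and in 0 of the 9 members' windows.

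Over all cells, Ccr2 and Cx3cr1 were lower in DAB and the other 7 receptors differed by less than 2-fold. Ccr2, the receptor for the monocyte chemokine CCL2, stood at 105 counts per 1000000 UMIs (CPM) in DMSO (103 to 107) and 30.1 in DAB (29.2 to 31.0), from 9578 and 4203 UMIs. This was 3.48-fold lower in DAB, a log2 ratio of -1.80 (-1.85 to -1.75), and placed Ccr2 at rank 13171 of 13332 genes ordered from highest to lowest ratio. Cx3cr1, the fractalkine receptor, was scarce and had 7.13 CPM against 2.28 in DAB, from 653 and 319 UMIs, which gave -1.64 (-1.84 to -1.45) as log2 ratio. Its annotated span on chromosome 9 overlaps 9 other genes, among them Wdr48 (1889 and 2410 UMIs) and Csrnp1 (1135 and 1487), and its counts are uncertain for that reason. In pooled cells, fewer cells of a type and less RNA per cell cannot be told apart. Of the 9 members, 2 were at least 2-fold lower and 0 at least 2-fold higher, beside 5.18% and 4.42% of the 13332 genes with at least 100 UMIs over both libraries. The median log2 ratio was -0.14 over the members and -0.01 over all these genes.

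**Figure D1:**
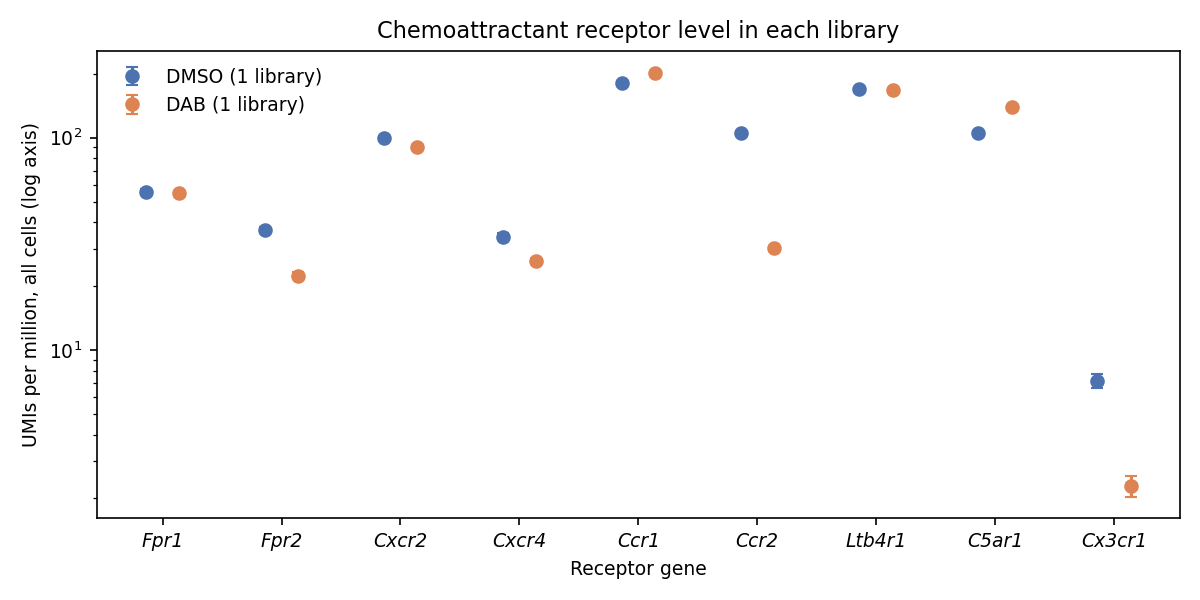
Level of each receptor over all cells in CPM on a log axis, with 1 point per library and bars for the 95% Poisson interval, often smaller than the point. Ccr2 stood at 105 in DMSO and 30.1 in DAB and Cx3cr1 at 7.13 and 2.28, while the points of Fpr1 and Ltb4r1 lay side by side.

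The receptors for formyl peptides, chemokines of neutrophils, leukotrienes and complement kept closer levels. Fpr2 stood at 36.9 and 22.4 CPM (log2 ratio -0.72, -0.79 to -0.65), and its position overlaps that of Fpr3, with 246 and 190 UMIs. Cxcr4 stood at 34.2 and 26.3 CPM (-0.38, -0.45 to -0.31), and Cxcr2 at 100.0 and 90.7 (-0.14, -0.18 to -0.10). C5ar1 was the member with the highest ratio, at 105 and 139 CPM (0.41, 0.37 to 0.44), followed by Ccr1 at 182 and 201 (0.15, 0.12 to 0.18). Fpr1 stood at 55.6 and 55.2 CPM and Ltb4r1 at 169 and 167, with intervals of the ratio that included 0. The order of the ratios was thus C5ar1, Ccr1, Fpr1, Ltb4r1, Cxcr2, Cxcr4, Fpr2, Cx3cr1 and Ccr2. In this order the intervals of Fpr1 and Ltb4r1 overlapped, as did those of Cx3cr1 and Ccr2.

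Each library held different numbers of the cell types, and the members were therefore also compared with both libraries given the same mix of clusters. Ccr2 then stood at 107 and 25.5 CPM, a log2 ratio of -2.07, and Cx3cr1 at 7.24 and 2.17, a ratio of -1.74. The ratios of Fpr2, Cxcr4 and C5ar1 were -0.64, -0.34 and 0.36, each in the direction found over all cells.

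The named types were mature PMN-like cells (591 DMSO and 1637 DAB cells), intermediate granulocyte-like cells (1801 and 900), chemokine-high granulocyte-like cells (375 and 1790), granulocyte progenitor-like cells (410 and 398), immature monocyte-like cells (1020 and 189), mature monocyte-like cells with MHC class II genes (381 and 513), macrophage-like cells (152 and 118), activated dendritic cell-like cells (165 and 108) and B cell-like cells (144 and 194). PMN stands for polymorphonuclear granulocytes. Of the 2 progenitor-like clusters, the smaller, with 129 DMSO and 29 DAB cells, was led by Mt2 and Mt1 and also by Hspa1a, genes of metal and heat stress. The chemokine-high type was named by chemokine genes, with 1 of them among the leading genes of cluster K, so its place among granulocytes is less certain. It was filled mostly by 1 cluster in DAB (1085 of its cells in cluster D) and by both in DMSO (173 in D and 202 in K). For Ccr2, Cxcr2 and Cxcr4, values within those clusters are therefore given beside those of the type. The intermediate type was likewise split unevenly between clusters B (968 and 699 cells) and H (833 and 201), as was the progenitor-like type between N (281 and 369) and the stress-led W. Too few to compare were the basophil or mast cell-like (54 and 88) and the T or NK cell-like type (18 and 22).

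Droplets can take up free RNA from other cells. B cell-like cells should lack all members but Cxcr4, and shares at or below theirs are not set apart from background by this measure. Whether UMIs of members in B cell-like cells are free RNA was not tested. The median depth of these cells was 4043.5 UMIs in DMSO and 4980.5 in DAB, and shares of cells with a UMI are given after each cell had been thinned to 1500 UMIs. Thinning removes more of the UMIs of deep cells, such as mature monocyte-like cells (median 19609 in DMSO), than of shallow ones, such as mature PMN-like cells (2783). The comparison is therefore not equally strict across types. The thinned share in B cell-like cells was 0.758% of 132 DMSO cells for Fpr1 and Ccr2 and 1.52% for Cxcr2 and Ltb4r1. It was 0 of 132 for Fpr2, Ccr1, C5ar1 and Cx3cr1, which allows a share of up to 2.27%. In DAB it was 0 of 179 for Fpr1, Fpr2 and Cxcr2, which allows up to 1.68%, 0.559% for Ccr2, Ltb4r1 and C5ar1, and 1.12% for Ccr1 and Cx3cr1.

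**Figure D2:**
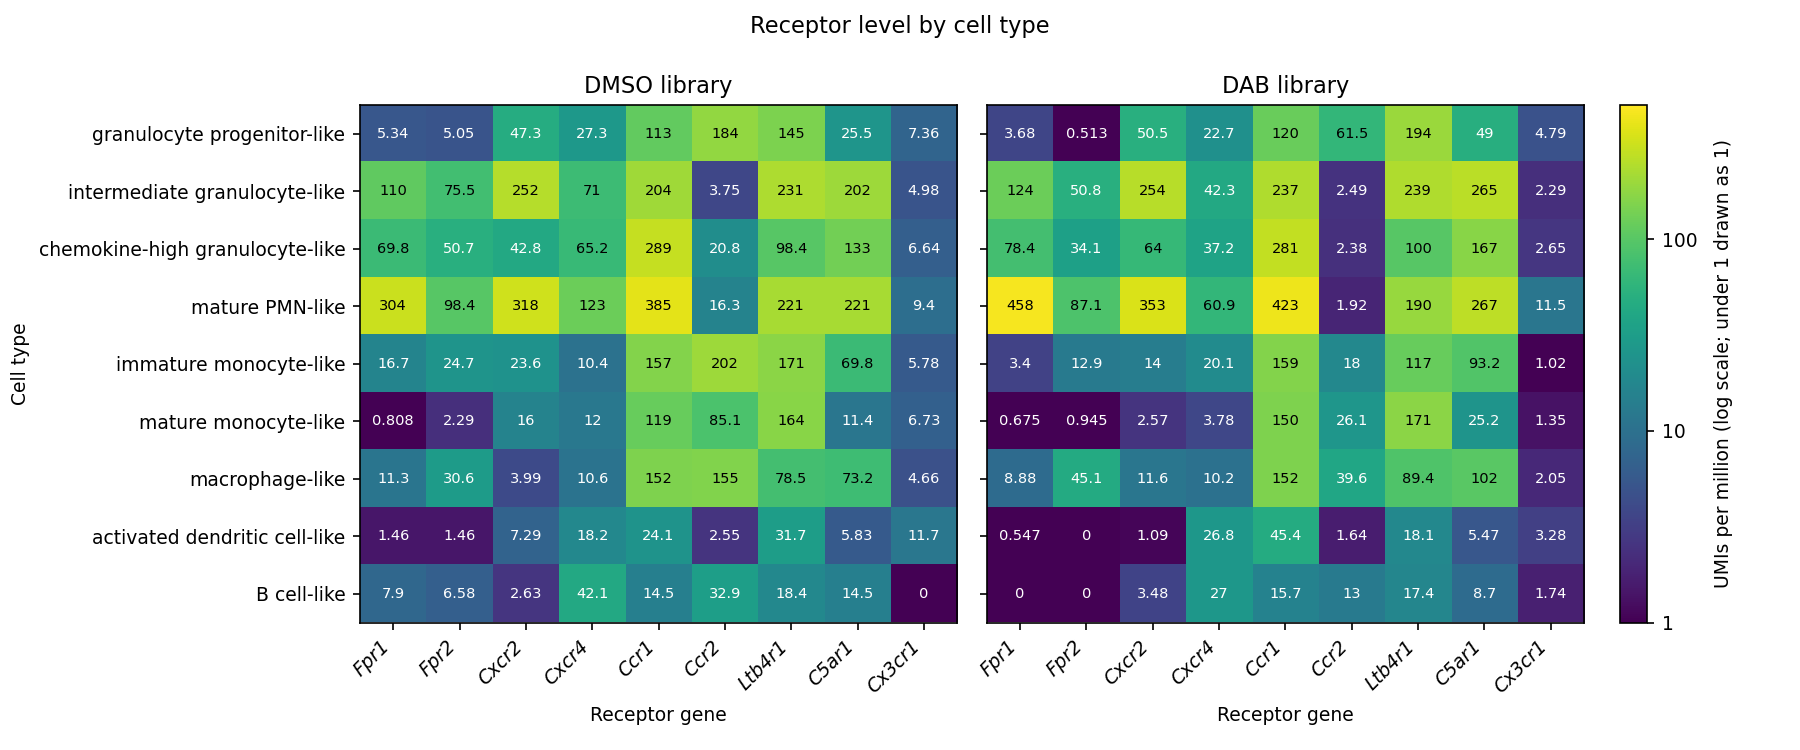
Level of the 9 receptors (columns) in 9 cell types (rows) in CPM, DMSO library on the left and DAB library on the right, with the value in each field and colour on a log scale, 1 library per panel. Down each column, Fpr1 was highest in mature PMN-like cells in both libraries (304 and 458), and Ccr2 was highest in immature monocyte-like cells in DMSO (202) and in granulocyte progenitor-like cells in DAB (61.5).

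Among the compared types, Ccr2 was a receptor of monocytes, macrophages and progenitors and was lower in DAB in each of them. In immature monocyte-like cells it stood at 202 CPM in DMSO (196 to 209) and 18 in DAB (13.5 to 23.6), 11.2-fold lower, with a log2 ratio of -3.49 (-3.91 to -3.10). At Leiden resolution 0.5 the ratio was -1.72, still past 2-fold but smaller. The share of these cells with a Ccr2 UMI was 25.2% in DMSO (22.6 to 28.0) and 3.21% in DAB (1.19 to 6.85). Without thinning it was 69.1% and 13.2%, at median depths of 17006 and 14931 UMIs. The DMSO share was above that of B cell-like cells (0.758%) beyond both intervals, and the DAB share was not (0.559%).

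In macrophage-like cells Ccr2 stood at 155 and 39.6 CPM, a log2 ratio of -1.97 (-2.41 to -1.55). Mature monocyte-like cells had 85.1 and 26.1 CPM (-1.71, -1.89 to -1.52), and without alignment of the libraries the ratio was -0.87, under 2-fold. Granulocyte progenitor-like cells, the compared type with the highest Ccr2 level in DAB, had 184 and 61.5 CPM (-1.58, -1.72 to -1.45). Basophil or mast cell-like cells, too few to compare, had 113 and 108 CPM. The unnamed cluster O, led by Cpa3 and Il2ra, with 100 DMSO and 499 DAB cells, had 161 and 94.7 CPM (-0.77, -0.96 to -0.57). It held 1043 Ccr2 UMIs in DAB. The order of the compared types thus differed between the libraries, with immature monocyte-like cells first in DMSO and progenitor-like cells first in DAB. The shares of cells with a UMI in these types were 11.6% and 4.46% (macrophage-like), 9.28% and 4.11% (mature monocyte-like) and 18.7% and 8.61% (progenitor-like). Without thinning the same shares were 30.3% and 19.5%, 50.4% and 27.9%, and 56.1% and 44.2%.

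Ccr2 was scarce in the named granulocyte types other than progenitors, where its shares were not above those of B cell-like cells. Unnamed clusters with granulocyte genes varied. Cluster M, led by Chil3, had 56.5 and 6.95 CPM, and cluster A, led by Car4 and Csf3r, 30.2 and 8.07. Cluster Q, led by Retnlg and Ly6g, had 1.39 and 8.20 CPM. Intermediate granulocyte-like cells had 3.75 and 2.49 CPM (-0.59, -1.37 to 0.15), with shares of 0.292% and 0.447%. Mature PMN-like cells had 16.3 and 1.92 CPM, from 33 and 12 UMIs, with a share of 0.578% and 0.0645%. Chemokine-high granulocyte-like cells had 20.8 and 2.38 CPM, and shares of 1.43% and 0.172%, with log2 ratios of -2.91 in cluster D and -4.85 in cluster K (16 and 2 UMIs, -8.02 to -2.76). In B cell-like cells Ccr2 had 32.9 CPM against 13 in DAB, with a ratio of -1.33 on the log2 scale (-2.36 to -0.36). Its 25 and 15 UMIs there came from only 2.78% of 144 DMSO and 1.03% of 194 DAB cells without thinning. The interval leaves out the spread between so few cells. Ccr2 UMIs in DMSO came to 38.0% from immature monocyte-like cells, to 13.3% from progenitor-like cells and to 37.4% from unnamed clusters. In DAB the shares of its UMIs from these sources were 1.26%, 17.1% and 66.5%.

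Ccr1, which binds CCL3 and related chemokines, was found across the myeloid types at like levels in both libraries. It stood at 385 and 423 CPM in mature PMN-like cells, at 289 and 281 in the chemokine-high granulocyte-like type and at 157 and 159 in immature monocyte-like cells. Its share of cells with a UMI was above that of B cell-like cells beyond both intervals in 7 of the other 8 types, in each library. The exception was the activated dendritic cell-like type, which had 24.1 and 45.4 CPM, a log2 ratio of 0.92 (0.43 to 1.41) and the highest of Ccr1 in any type. That ratio was 0.09 without doublet removal and 0.20 at Leiden resolution 0.5. Over the 9 types its ratios ran from -0.04 to 0.92.

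**Figure D3:**
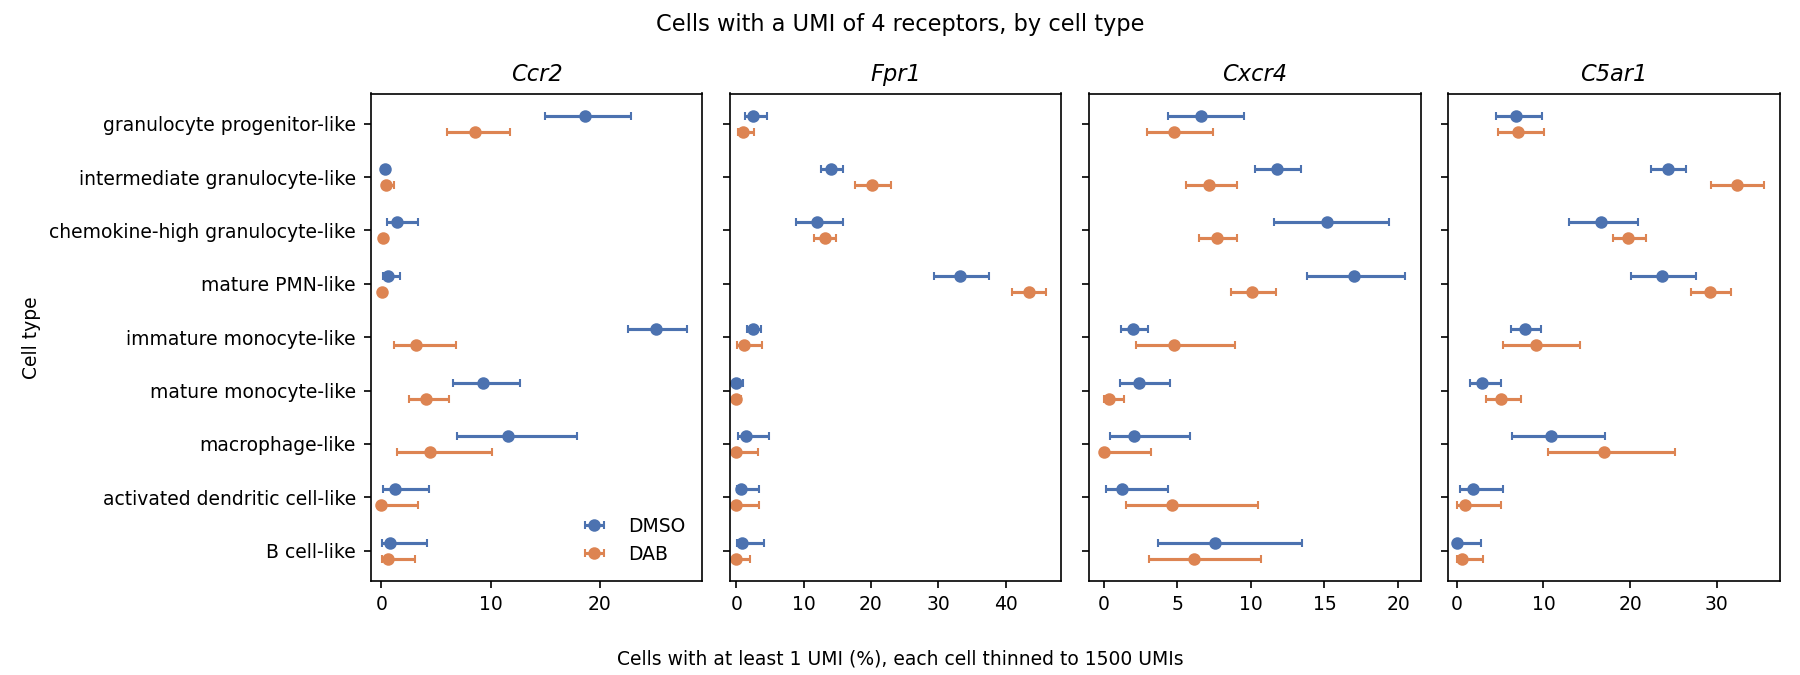
Cells with at least 1 UMI of Ccr2, Fpr1, Cxcr4 and C5ar1 (percent, horizontal axis) in 9 cell types (vertical axis), each cell thinned to 1500 UMIs, with 1 point per library and bars for the exact 95% binomial interval. The Ccr2 share was 25.2% in DMSO and 3.21% in DAB in immature monocyte-like cells, and the Fpr1 share was 33.3% and 43.5% in mature PMN-like cells.

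Fpr1, the high-affinity formyl peptide receptor, was a granulocyte gene, and it was higher in DAB in mature PMN-like cells. There it stood at 304 CPM in DMSO (281 to 329) and 458 in DAB (441 to 475), with a ratio of 0.59 on the log2 scale (0.46 to 0.72), under 2-fold. The share of these cells with a UMI was 33.3% (29.3 to 37.6) and 43.5% (41.0 to 46.0), or 48.9% and 62.2% without thinning, at median depths of 2783 and 3268 UMIs. In the 2 clusters of the type, C and J, the ratios were 0.33 and 0.92, and at Leiden resolution 0.5 the type had 1.11, past 2-fold. Intermediate granulocyte-like cells had 110 and 124 CPM and shares of 14.1% and 20.1%, but neither cluster was higher beyond its interval, with ratios of -0.23 in B (-0.35 to -0.11) and 0.03 in H (-0.29 to 0.34). The chemokine-high granulocyte-like type had 69.8 and 78.4 CPM and shares of 12% and 13.2%. Only in these 3 types, of the 8 set against B cell-like cells, was the Fpr1 share above theirs beyond both intervals, in each library.

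Among the named types, Fpr1 was scarce outside the granulocytes. In immature monocyte-like cells it stood at 16.7 and 3.40 CPM, a log2 ratio of -2.29 (-3.37 to -1.39), with shares of 2.46% and 1.07% that were not above those of B cell-like cells. The ratio was -0.73 at Leiden resolution 0.5 and -0.54 when genes that differed in most clusters were left out of the clustering, under 2-fold in each. The unnamed clusters together had 69.9 and 32.6 CPM of Fpr1. Those with much Fpr1 did not share the direction of mature PMN-like cells throughout. Cluster Q, led by Retnlg and Ly6g, had 236 and 136 CPM (-0.79, -1.04 to -0.54), and cluster M, led by Chil3, 116 and 44.2 (-1.39, -1.77 to -1.03). Cluster A, led by Car4 and Csf3r, had 130 and 140 (0.11, -0.04 to 0.25). Mature PMN-like cells gave 12.1% of all Fpr1 UMIs in DMSO and 37.1% in DAB, so like levels over all cells stood beside unlike ones within groups.

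Fpr2, which also binds lipid and protein ligands, followed Fpr1 across clusters. Pearson's r between the log2 levels of the genes was 0.91 over 49 sums of clusters and libraries, which share their libraries and depth and give a description only. Fpr2 was highest in mature PMN-like cells, at 98.4 and 87.1 CPM (log2 ratio -0.18, -0.41 to 0.07), with -0.57 in cluster C (-0.90 to -0.24) and 0.25 in cluster J (-0.11 to 0.62). In intermediate granulocyte-like cells it stood at 75.5 and 50.8 CPM, and in chemokine-high granulocyte-like cells at 50.7 and 34.1, with a log2 ratio of -0.57 in each. Macrophage-like cells had 30.6 and 45.1 CPM (0.56, -0.01 to 1.13), and 3.40% and 11.6% of them had a UMI. Granulocyte progenitor-like cells had 5.05 and 0.513 CPM, from 35 and 6 UMIs, a ratio of -3.30 (-4.84 to -2.03). It was -2.36 in cluster N (13 and 5 UMIs, -4.21 to -0.78), -2.26 in cluster W (22 and 1 UMIs, -7.63 to 0.37), and -1.67 in the type without doublet removal. The DMSO share in progenitor-like cells was 2.03%, within the interval of B cell-like cells (0 to 2.76%).

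Cxcr2, the receptor for CXCL1 and CXCL2, was carried by granulocytes in both libraries, with directions that differed between clusters. Mature PMN-like cells had 318 and 353 CPM (log2 ratio 0.15, 0.02 to 0.28). Intermediate granulocyte-like cells had 252 and 254 CPM (0.01, -0.07 to 0.09), but their clusters went opposite ways, with 398 and 284 CPM in B (-0.49, -0.58 to -0.40) and 119 and 180 in H (0.60, 0.43 to 0.76). The ratio of the intermediate type was 0.53 without doublet removal, 0.64 without a filter on barcodes and 0.60 at Leiden resolution 0.5. Shares of cells with a UMI in these types were 32.8% and 34.6%, and 30.9% and 34.5%, or 47.9% and 53.9%, and 58.1% and 78.0%, without thinning. Chemokine-high granulocyte-like cells, which carried its ligands as markers, had 42.8 and 64.0 CPM (0.58, 0.29 to 0.89), with ratios of 0.74 in cluster D and 0.23 in cluster K. In granulocyte progenitor-like cells Cxcr2 stood at 47.3 and 50.5 CPM. Larger ratios stood in types with little Cxcr2. These were -2.64 in mature monocyte-like cells (16.0 and 2.57 CPM), -2.74 in activated dendritic cell-like cells (20 and 2 UMIs, -5.88 to -0.69) and 1.54 in macrophage-like cells (6 and 17 UMIs, 0.13 to 3.17). These values moved with the processing. The ratio in mature monocyte-like cells was -0.42 at Leiden resolution 0.5, that in activated dendritic cell-like cells -0.69 without doublet removal and that in macrophage-like cells 0.03 as a mean over cells, none of them 2-fold. In none of these 3 types was the share of cells with a UMI above that of B cell-like cells in either library. That comparison could not place low shares, since the B cell-like interval reached 5.37% in DMSO. By summed UMIs, mature monocyte-like cells in DMSO (16.0 CPM, 13.3 to 19.2) stood above B cell-like cells (2.63, 0.319 to 9.51). The other types did not in DMSO, and none of the 3 did in DAB.

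Cxcr4, the receptor for the marrow chemokine CXCL12, was lower in DAB in the mature PMN-like, chemokine-high and intermediate types. Mature PMN-like cells, in which its level was highest, had 123 CPM in DMSO (108 to 139) and 60.9 in DAB (54.9 to 67.3), with a ratio of -1.02 on the log2 scale (-1.25 to -0.78). The ratio was -1.18 in cluster C and -0.73 in cluster J, and the share of cells with a UMI was 17% (13.8 to 20.5) and 10.1% (8.67 to 11.7), or 32.1% and 18.6% without thinning. The type's ratio ran from -1.15 to -0.82 over the alternatives, and so was not 2-fold in all of them. Chemokine-high granulocyte-like cells had 65.2 and 37.2 CPM (-0.81, -1.07 to -0.54), with -0.19 in cluster D (-0.61 to 0.26) and -0.85 in cluster K (-1.19 to -0.49). Intermediate granulocyte-like cells had 71.0 and 42.3 CPM (-0.75, -0.92 to -0.58). Granulocyte progenitor-like cells had 27.3 and 22.7 CPM (-0.26, -0.54 to 0.01), with -0.06 in cluster N (-0.38 to 0.26) and 0.79 in cluster W (0.03 to 1.50). Immature monocyte-like cells showed the other direction, with 10.4 and 20.1 CPM (0.94, 0.50 to 1.37), and mature monocyte-like cells had 12 and 3.78 CPM (-1.66, -2.17 to -1.17), or -0.61 at Leiden resolution 0.5. B cells use CXCR4, and B cell-like cells had 42.1 and 27.0 CPM and shares of 7.58% and 6.15%.

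The ratio of Cxcr2 to Cxcr4 UMIs was measured because the pair sets retention against release of neutrophils. Over all cells it was 2.92 in DMSO and 3.44 in DAB, a log2 change of 0.24 (0.16 to 0.32). In mature PMN-like cells it was 2.58 and 5.80 (1.17, 0.90 to 1.43), in the chemokine-high granulocyte-like type 0.656 and 1.72 (1.39, 1.0 to 1.78) and in intermediate granulocyte-like cells 3.54 and 6.00 (0.76, 0.57 to 0.95). The balance thus stood toward Cxcr2 in DAB in these 3 types. The unnamed clusters gave 48.1% of Cxcr2 UMIs in DMSO and 48.6% in DAB, and together did not show this. Their log2 ratios were -0.52 for Cxcr2 (-0.58 to -0.46) and -0.48 for Cxcr4 (-0.58 to -0.37). Single unnamed clusters differed, with -0.54 and -0.38 in cluster Q, led by Retnlg and Ly6g, and -0.12 and -0.98 in cluster A. In mature PMN-like cells the ratio of Cxcr4 between the libraries was -1.02 and that of Cxcr2 0.15. In the chemokine-high type, cluster D had -0.19 for Cxcr4 and 0.74 for Cxcr2, and cluster K -0.85 and 0.23. The part of the unlike mix of D and K in the type's change was not tested. In the intermediate type, cluster H had -0.43 for Cxcr4 and 0.60 for Cxcr2, while in cluster B both were lower in DAB, at -0.91 and -0.49. The balance stood toward Cxcr4 in DAB in immature monocyte-like cells (2.26 and 0.695, change -1.70, -2.33 to -1.08) and in mature monocyte-like cells (1.34 and 0.679, change -0.98, -1.69 to -0.26), where both receptors were scarce. It did so too in activated dendritic cell-like cells (0.400 and 0.0408, change -3.29, -5.47 to -1.12), from only 20 and 2 Cxcr2 UMIs. The change was 0.36 in granulocyte progenitor-like cells (0.02 to 0.69). In macrophage-like and B cell-like cells the interval included 0. Cells with a UMI of both, after thinning, were 5.59% of DMSO and 4.13% of DAB mature PMN-like cells. Those with Cxcr4 but no Cxcr2 UMI were 11.4% and 6.00%, and those with Cxcr2 but no Cxcr4 UMI 27.2% and 30.5%.

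**Figure D4:**
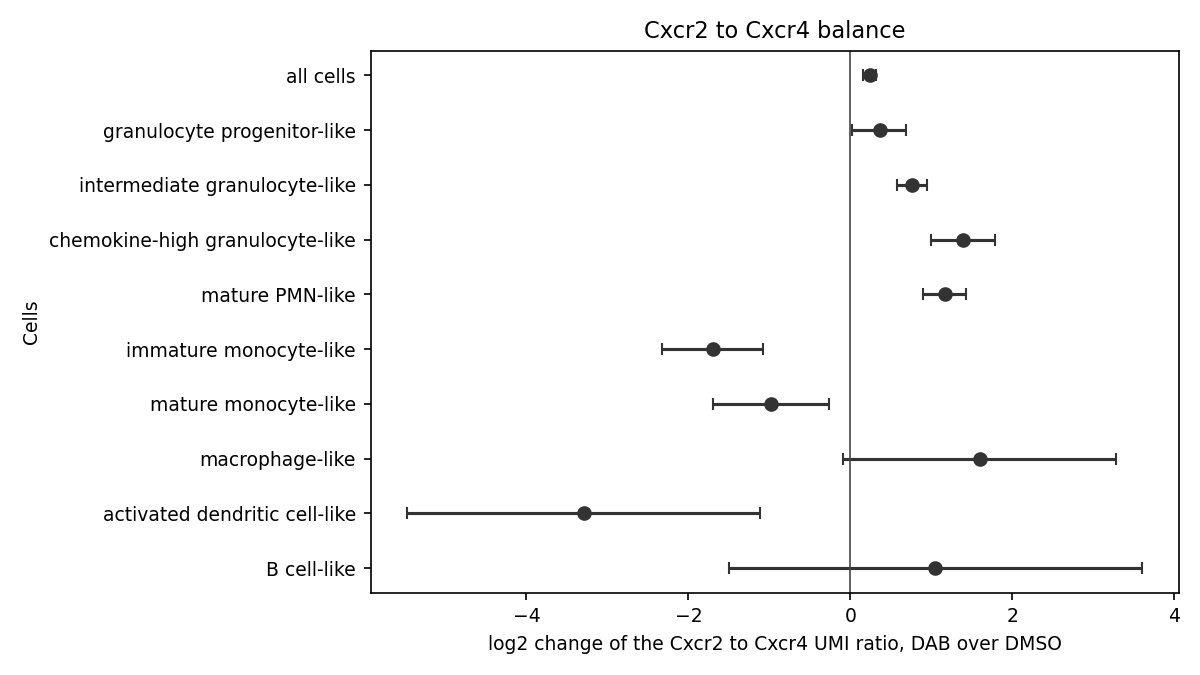
Change in the ratio of Cxcr2 to Cxcr4 UMIs, DAB over DMSO on the log2 scale (horizontal axis), over all cells and in 9 cell types, with bars for the 95% counting interval. Points right of 0 stand toward Cxcr2 in DAB, as in mature PMN-like cells (1.17), and points left of 0 toward Cxcr4, as in immature monocyte-like cells (-1.70).

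C5ar1 and Ltb4r1, the receptors for C5a and leukotriene B4, were found in both granulocytes and immature monocyte-like cells, and C5ar1 was higher in DAB in most types. C5ar1 stood at 221 and 267 CPM in mature PMN-like cells (log2 ratio 0.28, 0.13 to 0.43), at 202 and 265 in intermediate granulocyte-like cells (0.39, 0.31 to 0.47) and at 69.8 and 93.2 in immature monocyte-like cells (0.42, 0.22 to 0.61). It was 2.20-fold higher in DAB in mature monocyte-like cells, at 11.4 and 25.2 CPM (1.14, 0.79 to 1.50), with shares of 2.92% and 5.09%, or 15% and 31.4% without thinning, at median depths of 19609 and 28734 UMIs. Without doublet removal the ratio there was 0.94, under 2-fold. Granulocyte progenitor-like cells had 25.5 and 49.0 CPM (0.94, 0.69 to 1.19), and both their clusters were past 2-fold, with 1.53 in N (1.21 to 1.86) and 1.16 in W (0.59 to 1.72). In 7 of the 9 types C5ar1 was above 0 on this scale, and the exceptions were activated dendritic cell-like cells (-0.09) and B cell-like cells (-0.74), where the intervals included 0. Ltb4r1 stood at 221 and 190 CPM in mature PMN-like cells (-0.21, -0.37 to -0.05), at 164 and 171 in mature monocyte-like cells (0.06, -0.04 to 0.16) and at 171 and 117 in immature monocyte-like cells (-0.54, -0.71 to -0.38). Its ratios over the 9 types ran from -0.81 to 0.42.

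Cx3cr1 was near the floor of detection in each type. Its share of cells with a UMI was 0.931% of DMSO and 0.628% of DAB cells after thinning (3.71% and 2.44% without), and in none of the 8 types was it above that of B cell-like cells. That comparison could not place shares this low, since the B cell-like intervals reached 2.76% in DMSO and 3.98% in DAB. No change in these shares is read. Among summed UMIs of DMSO, B cell-like cells held 0, which allows up to 4.86 CPM. Mature PMN-like, progenitor-like, mature monocyte-like and activated dendritic cell-like cells (11.7, 7.98 to 16.5) stood above this beyond both intervals, the other types not. In DAB only mature PMN-like cells had Cx3cr1 above B cell-like cells in this way. By summed UMIs it was at least 2-fold lower in DAB in 5 of 7 types, among them immature monocyte-like cells (104 and 3 UMIs, log2 ratio -2.50, -4.80 to -0.91) and mature monocyte-like cells (50 and 20 UMIs, -2.32, -3.14 to -1.54). Mature PMN-like cells did not show this direction, with 9.40 and 11.5 CPM (0.29, -0.45 to 1.10).

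Counted over types, 72 of the 81 pairs of a member and a type had at least 20 UMIs. Of these, 19 were at least 2-fold lower and 2 at least 2-fold higher in DAB, beside 6.52% and 6.78% of all gene and type pairs. Of the 19 lower pairs, 7 were of Ccr2 and 5 of Cx3cr1, and in 5 the share of cells with a UMI in DMSO was above that of B cell-like cells beyond both intervals. Those 5 were Ccr2 in the immature monocyte-like, mature monocyte-like, macrophage-like and progenitor-like types and Cxcr4 in mature PMN-like cells. C5ar1 in mature monocyte-like cells was the higher pair that met the same condition. Shares as low as those of Cx3cr1 could not meet it, since the B cell-like interval reached 2.76% in DMSO. For Cxcr2 the interval reached 5.37%. B cells use CXCR4, so for Cxcr4, with an interval up to 13.5%, missing the condition does not mark background. Depth differed between the types, so the condition was not equally strict for each.

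By type, 5 of 8 members with enough UMIs were lower and 1 higher in mature monocyte-like cells, beside 8.61% and 7.09% of all genes tested there. Among those 5, the share of cells with a UMI was above that of B cell-like cells for Ccr2 alone. Fpr2, also among them, had 17 and 14 UMIs (-1.28, -2.41 to -0.17), or -0.85 without doublet removal. In immature monocyte-like cells 3 of 9 members were lower and 0 higher, beside 11.2% and 3.86%. Mature PMN-like cells had 2 of 9 lower and 0 higher, beside 2.80% and 5.34%, and chemokine-high granulocyte-like cells 2 of 9 and 0, beside 6.19% and 4.89%. Granulocyte progenitor-like cells had 2 of 9 lower and 0 higher, beside 6.95% and 8.17%, and intermediate granulocyte-like cells 1 of 9 and 0, beside 4.92% and 10.7%. The counts were 1 lower and 1 higher of 8 in macrophage-like cells, beside 6.15% and 6.08%. Activated dendritic cell-like cells had 2 of 6 lower and 0 higher, beside 5.63% and 5.15%, and B cell-like cells 1 of 5 and 0, beside 4.76% and 10.4%.

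Named and unnamed clusters gave a finer view, with 21 clusters of at least 100 cells in each library. Ccr2 had 20 UMIs or more in 17 of them, and it was at least 2-fold lower in DAB in 14 of the 17, beside 5.78% of all gene and cluster pairs. It was at least 2-fold higher in 1, beside 6.80%. That was cluster Q, an unnamed cluster led by Retnlg and Ly6g, with 1 and 34 UMIs and a log2 ratio of 2.56 (-0.01 to 7.91). Among 8598 genes measured in at least 17 clusters, the number for the scarcest members, 28, or 0.326%, were lower in as many clusters as Ccr2. The 14 include the B cell-like cluster S (-1.33). They also include clusters D (-2.91) and J (-3.19), of types whose Ccr2 share was not above that of B cell-like cells. The part of free RNA in these values was not tested. Cx3cr1 was at least 2-fold lower in 11 of 17 clusters, and 79 of the 8598 genes, or 0.919%, were lower in as many.

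For the other members, fewer clusters were past 2-fold. C5ar1 was above 0 in 18 of 21 clusters and at least 2-fold higher in 4, and 15.2% of the 8598 genes were above 0 in as many clusters. Genes measured in only 17 clusters could not reach 18, which lowers this share. Fpr2 was below 0 in 14 of 18 clusters and at least 2-fold lower in 4, and 6.32% of these genes were lower in as many. Cxcr4 was below 0 in 16 of 21 clusters and at least 2-fold lower in 2, and 14.0% of these genes were lower in as many. Fpr2 and Cxcr4 were also measured in more clusters than some of these genes. Ccr1 and Ltb4r1 stayed within 2-fold in all 21 clusters, with ranges of -0.37 to 0.92 and -0.81 to 0.67.

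**Figure D5:**
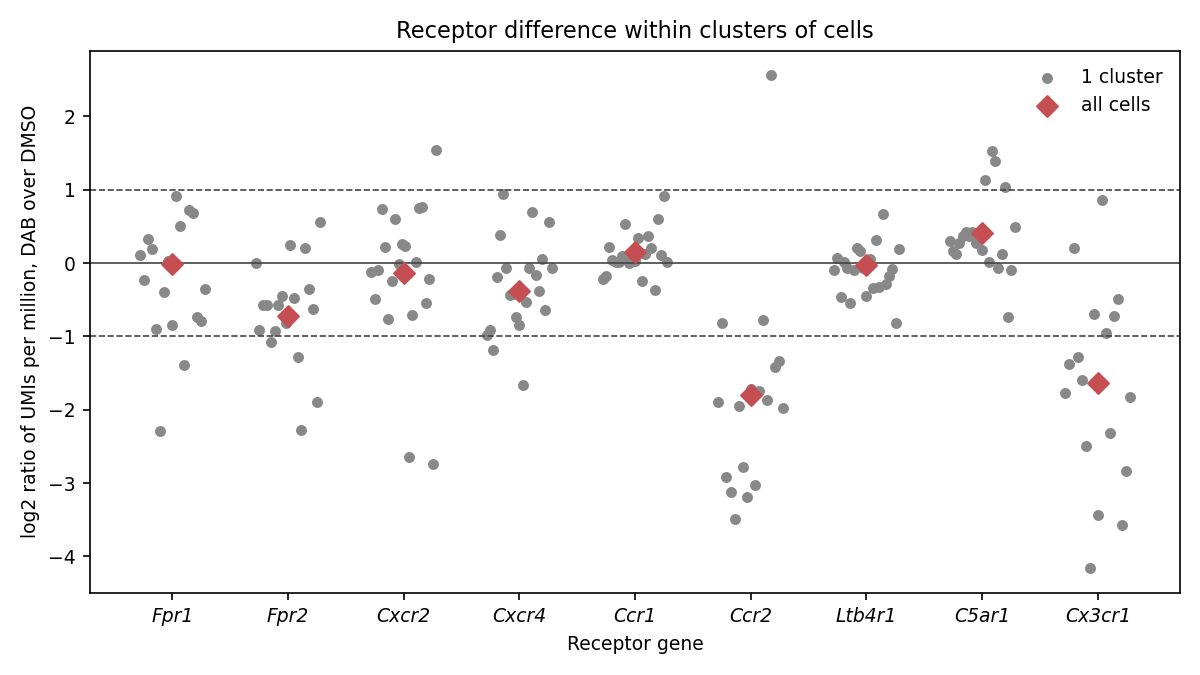
Log2 ratio of CPM, DAB over DMSO (vertical axis), for each receptor, with 1 grey point per cluster with at least 100 cells of each library and 20 UMIs of the gene, and a red diamond for all cells. Dashed lines mark 2-fold, and 14 of 17 Ccr2 points lie below the lower one while the 21 points of Ltb4r1 lie between the lines.

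The number of receptors found per cell was close between the libraries. After thinning to 1500 UMIs, a mean of 1.18 members per DMSO cell and 1.17 per DAB cell had a UMI, and 33.4% and 33.9% of cells had none. In mature PMN-like cells the mean was 1.91 and 2.00, and 30.3% and 35.4% of cells had 3 or more. Cells with a UMI of Ccr2 but none of Cxcr2 were 7.26% of DMSO and 2.33% of DAB cells, while those with Cxcr2 but no Ccr2 were 17.3% and 16.7%. Both were found together in 0.430% and 0.177% of cells.

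Among 30 other chemoattractant receptors, 16 had at least 100 UMIs, and 4 of these were at least 2-fold lower in DAB and 3 higher, beside 5.18% and 4.42% of all genes. The median log2 ratio of the 16 was -0.10. Among the lower were the scavenger Ackr3 (2.39 and 0.572 CPM, log2 ratio -2.06), the chemerin receptor Cmklr1 (12.1 and 5.41, -1.16) and Cxcr1 (2.49 and 1.18, -1.08). Higher were S1pr1, which guides exit from tissues (0.502 and 2.17 CPM, 2.11), the eosinophil receptor Ccr3 (0.437 and 1.37, 1.65) and Ccr10 (0.284 and 0.594, 1.06). Eosinophil markers summed to 12.5 CPM in DMSO and 91.1 in DAB, all 6 being detected, and their part in the Ccr3 value was not tested.

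Ligands of the members were measured in the same cells. Of 20 ligands and enzymes that make them, 17 had at least 100 UMIs, 3 were at least 2-fold lower and 5 higher, beside 5.18% and 4.42% of all genes, with a median log2 ratio of 0.15. The CCR2 ligands Ccl2 (20 and 98.1 CPM, log2 ratio 2.29) and Ccl7 (1.26 and 6.95, 2.47) were higher in DAB, where Ccr2 itself was lower. Ccl2 was among the leading genes of cluster D, which held 173 DMSO and 1085 DAB cells. The CXCR2 ligands Cxcl2 (134 and 543 CPM, 2.02) and Cxcl3 (260 and 1756, 2.76) were higher as well, and both are markers of the chemokine-high type (375 and 1790 cells). The part of the mix of cells in these values was not tested. Alox5, the first enzyme of leukotriene synthesis, stood at 132 and 279 CPM (1.08). Others of these groups with at least 100 UMIs were not higher beyond their intervals. Log2 ratios were -0.75 for the CCR2 ligand Ccl12 (-1.30 to -0.21) and 0.01 for the CXCR2 ligand Cxcl1 (-0.45 to 0.48). Lta4h and Alox5ap, which also serve leukotriene synthesis, had -0.44 and -0.08. At least 2-fold lower were the CCR1 ligand Ccl5 (49.3 and 20 CPM, -1.30) and 2 ligands of FPR2, Camp (567 and 58.9, -3.27) and Saa3 (38.0 and 5.26, -2.85). Camp is also a marker of intermediate granulocyte-like cells, which were 1801 and 900 cells. The CXCR4 ligand Cxcl12 had 2 UMIs in DMSO and 0 in DAB.

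Of 31 genes that carry or end the receptors' signal, all had at least 100 UMIs, 2 were at least 2-fold lower and 1 higher, near the 5.18% and 4.42% of all genes, with a median log2 ratio of 0.04. Lower were the receptor kinase Grk3 (12.1 and 5.18 CPM, -1.22) and Rgs1, which speeds the switching off of G proteins (54.4 and 24.6, -1.15). Rgs18, of the same family, was higher (15 and 36.7 CPM, 1.29).

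Over the 49 sums of clusters and libraries, the genes whose log2 levels were most like each member's were taken from 9523 genes. High values of Pearson's r were 0.96 for Fpr1 with Acta2, 0.91 for Fpr2 with Bst1, 0.93 for Cxcr2 with Rufy4, 0.87 for Cxcr4 with Arhgef3 and 0.89 for Ccr1 with Apobr. Others were 0.93 for C5ar1 with Cd33, 0.80 for Ccr2 with AI504432 and 0.74 for Cx3cr1 with Cep70. Ltb4r1 had r = 0.83 with Alox5ap, which serves leukotriene synthesis. Among the members, Ccr1 and C5ar1 had r = 0.83 and Fpr1 and Cxcr2 had 0.81, while Ccr2 had a negative r with 6 of the other 8, at the lowest -0.49 with Fpr1. These sums share libraries and depth, and the values describe likeness only.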

How the data were processed

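Libraries were 10x Genomics 5′ v2. The deposited values are raw UMI counts per gene and barcode, which the authors made by aligning to mm10 in Cell Ranger 7.0.0. The sources used here do not say whether intronic reads were counted. Per the submitters' processing notes, Seurat 4.3.0 and R 4.1.2 were also used. The files held 9855 DMSO barcodes (median 8068 UMIs) and 11631 DAB barcodes (median 10273 UMIs).

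From these counts, barcodes over 10% mitochondrial UMIs were removed (55 and 89), as were 768 and 1066 doublets, scored by similarity to simulated doublets. Of 400 doublets planted as a test 46.2% were called, so others remain. A limit of 4 median absolute deviations removed 0. Pearson residuals of 3000 variable genes, with the receptors left out, gave 40 components, aligned by mutual nearest neighbours and clustered with Leiden at resolution 0.9 into 28 clusters. A cluster took a cell type's name when at least 3 of its markers, and most of those detected, were raised 2-fold. Its leading genes also must not go against the name. The mature PMN, intermediate and chemokine-high names also required S100a8 or Csf3r to be raised. Very shallow clusters with no own marker among their leading genes were not named. By these rules 13 clusters stayed unnamed, among them cluster Q, with 5 of 10 intermediate granulocyte markers raised. UMIs were summed per library and cluster or type and divided by the total (CPM), with exact Poisson intervals for levels, exact conditional intervals for ratios and a normal approximation on the log scale for the Cxcr2 to Cxcr4 balance. Shares carry exact binomial intervals. For shares, each cell was thinned to 1500 UMIs, and 436 shallower cells of DMSO and 292 of DAB were left out. The interval of the ratio was tested on simulated data. Analyses used Python 3.11.15, numpy 2.4.6, scipy 1.17.1, scikit-learn 1.9.0, igraph 0.11.9 and leidenalg 0.10.2.

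The members, lists and markers were chosen with earlier results of these data known. The text names the 9 members, genes of the other lists past 2-fold over all cells with at least 100 UMIs, and the genes most like each member. Values of 2 genes that this rule names are not reported here. Cxcl12, Ccl12, Cxcl1, Lta4h, Fpr3, Wdr48, Csrnp1 and the genes that check the lineage fall outside this rule and were named after their values were seen. Likeness used log2(CPM + 10) over sums of at least 50 cells, among genes reaching 20 CPM in a sum. Alternatives were no doublet removal, no filter, a mean over cells, median-of-ratios scaling, the same mix of clusters, Leiden resolutions 0.5 and 1.5, no alignment, clustering without 59 genes that differed in most clusters, other minimums of UMIs and other thinning. Gene positions and overlaps are those of GENCODE on GRCm38. The comparison used no column of the authors' own results.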

Additional observations from a re-analysis of the deposited data

Results flagged for a closer look

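Cxcr2 was singled out because its ratio had opposite directions in cell types, each at least 2-fold with an interval that left out 0. In activated dendritic cell-like cells the log2 ratio was -2.74, from 20 and 2 UMIs (-5.88 to -0.69), and -0.69 without doublet removal, which is under 2-fold. In basophil or mast cell-like cells it was 2.56 (1.88 to 3.32), from 19 UMIs in 54 DMSO cells and 228 UMIs in 88 DAB cells, or 42.3 and 249 CPM. The share of basophil or mast cell-like cells with a Cxcr2 UMI was 9.43% and 36.9% after thinning, while in the dendritic type it was 0 in both libraries, which allows up to 1.84% of DMSO and 2.78% of DAB cells. The difference between the types was not tested.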

How the results depend on the processing

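With 1 library per condition, leaving out a replicate could not be done, and no paired analysis was possible because each condition has 1 library and no test was made. Over all cells, 2 members were at least 2-fold lower and 0 higher under each of 5 alternatives, and Ccr2 ranged from -2.07 to -1.79 and Cx3cr1 from -1.74 to -1.12. Of 45 values of single members over all cells, 42 kept their direction. Fpr1 ranged from -0.12 to 0.50. The change in the Cxcr2 to Cxcr4 balance was 0.57 as a mean over cells. The 19 lower pairs of a member and a type became 12 at Leiden resolution 0.5 and 9 with at least 100 UMIs. The 2 higher pairs became 5 with no filter on barcodes, 1 as a mean over cells and 1 with at least 100 UMIs. The ratio of Ccr2 in B cell-like cells reversed to 0.05 with no filter. The cause was not tested, except that a higher minimum leaves fewer pairs.

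Log2 ratios of the shares of cells with a UMI were 0.36 for Fpr1, -0.07 for Cxcr2, -0.42 for Cxcr4, -1.62 for Ccr2 and -0.15 for Ltb4r1 after thinning to 1500 UMIs. Without thinning they were 0.16, 0.07, -0.08, -0.92 and 0.01 in the same order. The part of the libraries' unlike depth in these differences was not tested. At 3000 UMIs Fpr1 had 0.20 and C5ar1 0.27, against 0.38 at 1500. With doublets kept, Fpr2 had -0.54, Ccr2 -1.88, Ltb4r1 -0.06 and Cx3cr1 -1.06, against -0.34, -1.62, -0.15 and -0.57. Depth limits Cx3cr1 and the shares in types of few cells.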

Other observations

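Basophil or mast cell-like cells, too few to compare in the report, carried most members. With 54 DMSO and 88 DAB cells, they had 113 and 108 CPM of Ccr2 (log2 ratio -0.07, -0.57 to 0.45), 147 and 204 CPM of Ltb4r1 (0.48, 0.07 to 0.91) and 111 and 168 CPM of Ccr1 (0.60, 0.13 to 1.09). C5ar1 had 2 UMIs in DMSO and 54 in DAB, a ratio of 3.73 (1.81 to 6.81). Fpr1 and Fpr2 had at most 2 UMIs in either library.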
